A study of Mus musculus with 9 samples.

Results

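The zinc finger protein (Zfp) genes of the mouse are protein-coding genes whose symbol is Zfp followed by a digit, and they were followed here through the extrachromosomal circular DNA (eccDNA) of the heart. EccDNA is chromosomal sequence found as closed circles, and Circle-seq measures it by removing linear DNA, copying the remaining circles with phi29 polymerase and sequencing the product. A member is a distinct pair of 1 circle and 1 Zfp gene that it overlaps, and the pair is present in a library when the circle has 1 or more split reads there, that is, reads spanning the junction at which the circle closes. By this rule 631 of the 68857 circle-gene pairs belonged to Zfp genes. They came from 584 of 149584 distinct circles and covered 218 of the 14085 genes with a circle.

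Most Zfp proteins carry C2H2 zinc fingers, short loops that hold a zinc ion and read DNA base by base, and many mouse members also carry a KRAB domain, which recruits the cofactor Trim28 and silencing chromatin to transposable elements and imprinted genes. The KRAB members stand largely in tandem clusters of related genes, whereas long single-copy members such as Zfp423 and Zfp521 act as transcriptional cofactors in development. The symbol is shared by unrelated folds as well, for example the CCCH fingers of Zfp36, which bind RNA. A circle holding a short piece of such a gene does not carry the gene itself, and the assay measures DNA, so none of the values below is a level of RNA or protein.

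All hearts were from wild-type C57BL/6J animals of 3 ages. Embryos of day 18 (E18), pups 3 days old (3d) and adults 8 weeks old (8w) gave 3 libraries each. The labels number the libraries of a stage as biological replicates, give cardiocytes as the cell type beside heart as the tissue, and give no sex and no count of animals per library. Since the assay reads DNA, the cell type could not be checked by expressed markers. Split reads per library ran from 11377 in 8w replicate 1 to 846374 in E18 replicate 1, and distinct circles from 3931 to 42963. Intervals below are Wilson 95% intervals. They hold counting error alone and treat circle-gene pairs as independent, so they are too narrow where 1 long circle gives many pairs. Reads copied from 1 circle by amplification do not count separate molecules.

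The library 8w replicate 1 stood apart in the Zfp genes. It held 28 Zfp pairs, and 14 of them came from 1 circle of 8.69 Mb (chr17:27332906-36018529, GRCm38/mm10) that was supported there by 1 split read. This circle spans 259 genes, 14 of them Zfp genes, and had 6 split reads in 3d replicate 3 and none in the other 7 libraries. Of the Zfp pairs, those with only 1 split read were 82.1% in 8w replicate 1 and 40.0% in 3d replicate 1, against 4.82% to 23.5% in the others. For other genes these shares were 65.8% in 8w replicate 1, 39.6% in 3d replicate 1 and 5.77% to 17.5% elsewhere. Pairs with 1 split read were thus frequent in these 2 libraries outside the Zfp genes as well. Values that rest on 8w replicate 1 are therefore given also for circles up to 100 kb, a limit chosen after the lengths had been seen.

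Zfp genes took close to 1% of circle-gene pairs at every stage, and the stages did not pass in the share of pairs. Their share of pairs was 1.01% (0.870 to 1.18%), 0.842% (0.603 to 1.17%) and 0.899% (0.668 to 1.21%) in E18 replicates 1 to 3. It was 0.933% (0.791 to 1.10%), 0.990% (0.830 to 1.18%) and 0.938% (0.816 to 1.08%) at 3d. The adult replicates showed 1.47% (1.02 to 2.12%), 0.798% (0.60 to 1.06%) and 0.678% (0.429 to 1.07%). The adult libraries thus held both the highest and the lowest share, and the stages overlapped. The means were 0.918 ± 0.0867% at E18, 0.954 ± 0.0313% at 3d and 0.983 ± 0.429% at 8w (SD, n = 3), and p was 0.982 between the stages (exact permutation test with F, 280 partitions, Benjamini-Hochberg adjusted over 8 stage tests 0.996). With circles up to 100 kb the share was 0.861%, 0.798% and 0.684% in the 8w replicates and 0.791% to 0.951% in the others, so that 8w minus 3d turned from 0.0294 to -0.145 percentage points (exact permutation p over the stages 0.0964, adjusted 0.154). Counted as distinct Zfp circles over all circles, the share averaged 0.393 ± 0.0335% in the E18, 0.427 ± 0.0109% in the 3d and 0.322 ± 0.0559% in the 8w libraries (SD, n = 3), and here the stages passed as a single test (exact permutation p = 0.0393). All circles include those that overlap no gene, and the same share was not computed for other genes. This pass is therefore not read as a change particular to Zfp genes.

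**Figure D1:**
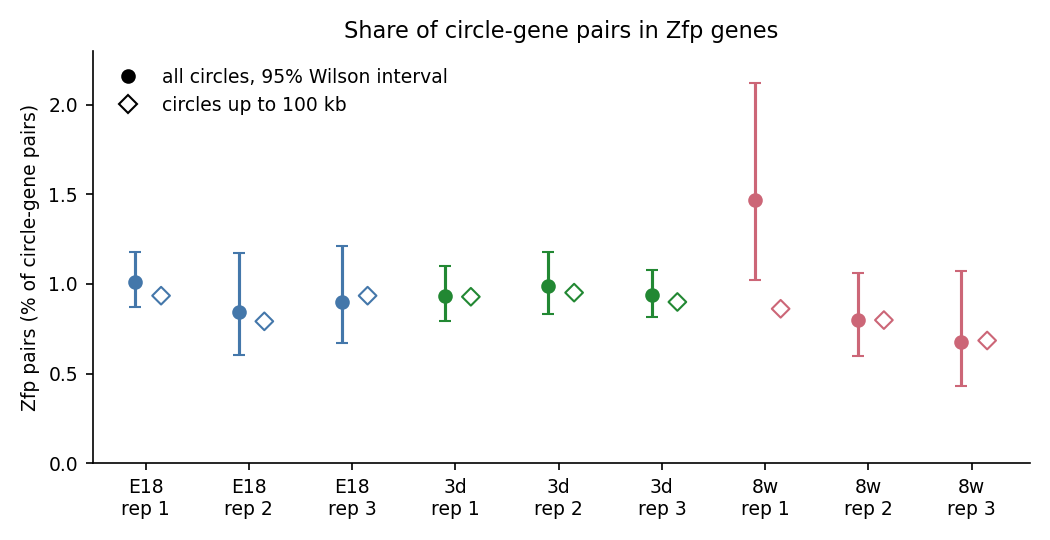
Percent of circle-gene pairs that belong to Zfp genes (y axis) in each of the 9 libraries (x axis), for all circles (filled points, bars are Wilson 95% intervals) and for circles up to 100 kb (open diamonds). 8w replicate 1 stands at 1.47% with all circles and at 0.861% with circles up to 100 kb.

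The number of Zfp pairs was highest in the libraries with most circles. The 4 libraries with most circles held 123 to 196 Zfp pairs, and the other 5 held 18 to 47. The libraries held 166, 34 and 43 pairs at E18, 140, 123 and 196 at 3d and 28, 47 and 18 at 8w. Every adult library held fewer pairs than every neonatal library, and the embryonic ones spanned both ranges. On the log2 scale 8w minus 3d was -2.38 (exact two-sided permutation p = 0.1, the smallest that 3 against 3 libraries allow), and the stages did not pass (exact permutation p = 0.0571, adjusted 0.229). Distinct Zfp genes with a circle numbered 104, 29 and 33 at E18, 89, 74 and 109 at 3d and 27, 41 and 14 at 8w (exact permutation p = 0.0964, adjusted 0.257). At an equal 11377 split reads per library these numbers were 30, 20 and 20, then 27, 30 and 34, and then 27, 20 and 9, so the stages lay closer together. Summed over the libraries of a stage, 129 Zfp genes had a circle at E18, 168 at 3d and 70 at 8w, and 34 had one at all 3 stages.

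Most Zfp circles were shorter than 1 kb, and in adult replicates 2 and 3 most were under 250 bp. Of the 631 pairs, 143 were under 250 bp, 28 of 1 to 100 kb and 66 over 100 kb, and the rest lay between 250 bp and 1 kb. Circles under 250 bp made up 19.9%, 23.5% and 25.6% of Zfp pairs in the E18 replicates and 17.1%, 21.1% and 8.16% in the 3d replicates. Of the 8w replicates they made up 25.0% (12.7 to 43.4%), 91.5% (80.1 to 96.6%) and 77.8% (54.8 to 91.0%). Adult replicates 2 and 3 stood far above every other library, and adult replicate 1 lay within the embryonic range.

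The difference in short Zfp circles over the stages did not pass after adjustment with all circles (exact permutation p = 0.025, adjusted 0.2). With circles up to 100 kb the share in 8w replicate 1 was 50%, the means were 25.1 ± 1.84% at E18, 16.8 ± 6.91% at 3d and 73.1 ± 21.1% at 8w (SD, n = 3), and the stages passed (exact permutation p = 0.00357, adjusted 0.0286), where no smaller p can arise from 280 partitions. They also passed with 2 or more split reads per circle (difference 81.8 percentage points for 8w minus 3d, exact permutation p = 0.0107, adjusted 0.0429). All other genes of the same libraries showed 22.3 ± 2.06%, 17.2 ± 9.34% and 72.0 ± 23.4% with circles up to 100 kb. Within a library the short share of Zfp genes minus that of other genes ran from -13.9 to 5.48 percentage points with all circles, with a mean of -1.28, and did not pass (exact two-sided sign-flip permutation test over 9 libraries, p = 0.625, adjusted over 5 tests 0.625).

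The median length of Zfp circles was 381.5, 386 and 355 bp in the E18 replicates, 389.5, 367 and 554 bp for 3d, and 4343153, 128 and 109.5 bp for 8w. The first of the adult values is set by the circle of 8.69 Mb. With circles up to 100 kb the medians at 8w became 216.5, 128 and 109.5 bp, while the other 6 lay between 355 and 413 bp. Between the stages p was 0.996 with all circles and 0.0143 with circles up to 100 kb (exact permutation tests, adjusted 0.996 and 0.0571). With 2 or more split reads per circle the stages passed (exact permutation p = 0.0107, adjusted 0.0429).

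**Figure D2:**
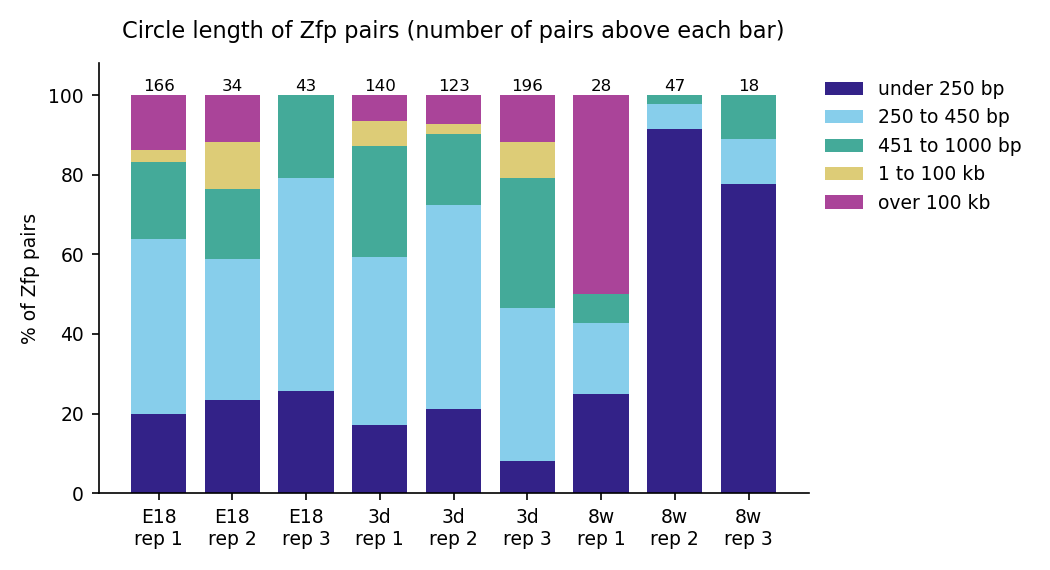
Share of Zfp circle-gene pairs in 5 length classes (y axis, % of Zfp pairs) in each library (x axis), with the number of pairs above each bar. Circles under 250 bp make up 91.5% and 77.8% of 8w replicates 2 and 3, and pairs over 100 kb make up 14 of the 28 pairs of 8w replicate 1.

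For their length, Zfp genes gave slightly fewer circles than other protein-coding genes in 8 of 9 libraries, a difference that passed in some settings only. This was measured on the RefSeq annotation of GRCm38.p6, which holds 397 protein-coding Zfp genes, and 253 of these overlapped a circle. Zfp genes gave 15.5, 3.43 and 4.03 circles per Mb of gene in the E18 replicates, 12.7, 11.5 and 17.6 at 3d and 2.39, 4.77 and 1.49 at 8w. Other genes gave 16.0, 3.94 and 4.69, then 14.7, 12.2 and 20.4, and then 1.81, 5.90 and 2.62. Zfp genes lay below the others in 8 of 9 libraries and above them in 8w replicate 1. The geometric mean ratio was 0.878 (log2 -0.187, SD over libraries 0.313) and did not pass (exact two-sided sign-flip permutation p = 0.0938, adjusted over 5 tests 0.273). Without 8w replicate 1 the log2 mean was -0.261, and the result passed (exact permutation p = 0.00781, adjusted 0.0391). At an equal number of split reads the log2 mean was -0.138 and did not pass (exact permutation p = 0.418, adjusted 0.418).

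With circles up to 100 kb the ratio lay below 1 in 9 of 9 libraries, between 0.573 in 8w replicate 3 and 0.915 in 3d replicate 2. Its geometric mean was 0.824 (log2 -0.279, SD 0.205) and passed (exact two-sided sign-flip permutation p = 0.00391, the smallest that 9 libraries allow, adjusted 0.0195). This limit was added after the data had been seen. The result also passed for circles of every length with 2 or more split reads (log2 -0.264, exact permutation p = 0.00391, adjusted 0.0195). Between the stages the ratio up to 100 kb did not pass, with log2 means of -0.197 ± 0.0727 at E18, -0.195 ± 0.0625 at 3d and -0.445 ± 0.313 at 8w (SD, n = 3, exact permutation p = 0.143).

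With the libraries pooled, the gap was seen in 3 of 4 classes of gene length, but per library it held throughout only from 30 to 100 kb. Counting distinct circles up to 100 kb over all libraries, Zfp genes under 10 kb gave 53.5 circles per Mb against 52.6 for other genes of that length. Those of 10 to 30 kb gave 48.7 against 58.1, those of 30 to 100 kb gave 51.3 against 64.7, and those over 100 kb gave 57.9 against 64.9. Per library the ratio from 30 to 100 kb ran from 0.478 in 8w replicate 3 to 0.908 in 3d replicate 3. From 10 to 30 kb it ran from 0.488 in 8w replicate 3 to 1.09 in 8w replicate 2. Over 100 kb it ran from 0.693 in 8w replicate 3 to 1.09 in 8w replicate 1. These last classes thus had libraries on both sides of 1. A circle up to 100 kb was found in 57.9% of Zfp genes and in 57.7% of other genes, but the classes differed. Under 10 kb the shares were 30.5% and 18.3%, where Zfp genes were longer (median 6.79 kb against 3.67 kb). They were 55.0% and 62.9% from 10 to 30 kb, 78.8% and 93.0% from 30 to 100 kb and 100% and 99.8% over 100 kb.

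Zfp genes that stand in clusters held the lower density. A split into 226 genes with another Zfp gene within 100 kb and 171 genes without one was made after the values had been seen, so it is given as a description with no test. Clustered genes gave 39.9 circles up to 100 kb per Mb and lone genes 61.3. Per library the ratio of clustered Zfp genes to genes outside the family was 0.641, 0.738 and 0.863 in the E18 replicates, 0.678, 0.650 and 0.590 at 3d and 0.499, 0.630 and 0.526 at 8w. The ratio for lone Zfp genes ran from 0.602 to 1.08 and was below 1 in 6 of 9 libraries. Clustered genes lay below lone ones in 9 of 9 libraries, with a geometric mean ratio of 0.684 and a range of 0.464 to 0.955. Among genes of 30 kb and over the values were 31.2 against 63.2 per Mb, and among shorter genes 45.7 against 54.6. The value of 31.2 rests on 2.05 Mb of clustered genes, a large part of it in Zfp993 and Zfp978 on chromosome 4. These span 478623 and 267146 bp in RefSeq and overlapped only 6 and 7 distinct circles. The ratio without them was not computed, so the size of the gap among long genes may reflect that locus. Clustered Zfp genes include near-identical copies, so their counts are uncertain. How reads that match several copies were placed is not given in the sources used here, and its part in the difference was not tested.

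**Figure D3:**
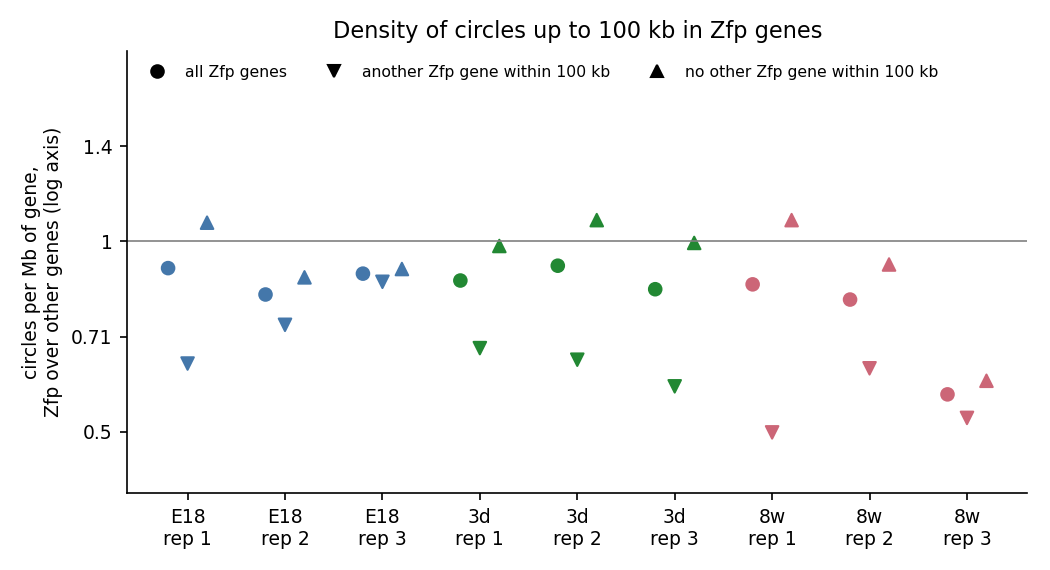
Circles up to 100 kb per Mb of gene in Zfp genes divided by the same in all other protein-coding genes (y axis, log scale) in each library (x axis), for all 397 RefSeq Zfp genes (circles), for those with another Zfp gene within 100 kb (triangles pointing down) and for those without (triangles pointing up). The clustered genes stand between 0.499 and 0.863, and the lone genes between 0.602 and 1.08.

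Whole Zfp genes were found on very long circles alone. Of 79 circles over 100 kb, 21 overlapped a Zfp gene, at lengths from 1.99 to 9.95 Mb, and they gave 66 pairs with 55 genes. Such pairs made up 10.5% of Zfp pairs and 5.75% of the pairs of other genes. In 65 pairs, all on these long circles, the circle held the whole gene, and no circle up to 100 kb held one. The longest circle of the latter kind measured 3689 bp, in Zfp407, and the shortest 42 bp, in Zfp566.

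The longest of the megabase circles (chr7:36803659-46750105) held 11 Zfp genes among 208 genes and had 76 split reads, all in E18 replicate 1. It carried Zfp536, Zfp619, Zfp788 and Zfp939, and a shorter circle over the same stretch (chr7:35917899-42352065) carried these 4 in 3d replicate 2 with 6 split reads. A circle of 8.50 Mb (chr7:127058351-135557843) held 10 Zfp genes of 117 and had 43 split reads in E18 replicate 1. A circle of 9.22 Mb on chromosome 4 (chr4:54043010-63260739) held Zfp37, Zfp462 and Zfp618 and had 102 split reads in 3d replicate 2. No junction of this kind was seen for a Zfp gene in E18 replicate 3 or in 8w replicates 2 and 3, and 27 of the 218 Zfp genes entered the set through long circles alone. Whether these junctions mark closed circles was not tested.

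By the gene spans of the deposited table, the Zfp genes with most circles were long single genes. Summed over the libraries, Zfp385b, Zfp407 and Zfp536 each had 31 circles, Zfp521 25, Zfp423 24, Zfp704 19, Zfp148 18, Zfp618 17, Zfp438 13, and Zfp462, Zfp804a and Zfp827 11 each. These 12 genes held 30.4% of the 795 summed Zfp pairs and 35.2% of the length of the 218 genes. The order depends on the annotation. In RefSeq, Zfp804b spans 575349 bp and overlaps 37 distinct circles, against 9 in the table's span of 107 kb, and Zfp469, which has no pair in the table, overlaps 21. At the other end, 78 genes had 1 circle in 1 library, 96 had 2 to 4 and 28 had 5 to 9.

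Zfp385b (chr2:77410635-77819639, 409 kb) had circles in all 9 libraries, with 4, 1 and 4 at E18, 5, 4 and 9 at 3d and 1, 1 and 2 at 8w. Zfp423 (chr8:87661811-87959595, 298 kb), a multi-finger cofactor of cerebellar and fat cell development, was the only other such gene, with 6, 1 and 3, then 2, 4 and 5, and then 1, 1 and 1. Per 10000 circles of a stage Zfp385b gave 1.64 at E18, 1.77 at 3d and 1.58 at 8w, and Zfp423 gave 1.82, 1.08 and 1.19. The adult rates rest on 4 circles of Zfp385b and 3 of Zfp423, so no order of the stages is read from them. Zfp536 (chr7:37472136-37773641, 302 kb), a repressor of neuronal differentiation, had 8, 0 and 2 circles at E18, 5, 6 and 6 at 3d and 1, 0 and 3 at 8w.

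Zfp521 (286 kb), a transcriptional cofactor of progenitor cells, had 6, 2 and 0 circles at E18, 7, 4 and 6 at 3d and 0, 0 and 0 at 8w. Its adult libraries were thus all at 0, while all neonatal ones held at least 4. Set against a floor of 3 circles over the 8w libraries together, its summed count per circle was 1.41-fold higher at 3d and 1.23-fold higher at E18. These folds leave out the spread of the 3d and E18 counts, so they are not lower limits. Zfp407 (462 kb) had 9, 3 and 2 circles at E18, 3, 2 and 11 at 3d and 0, 0 and 1 at 8w. Zfp609 (chr9:65692392-65827564), which works with the Integrator complex in neural progenitors, had 2, 0 and 0, then 1, 2 and 5, and 0 in the adult libraries. Zfp804a (chr2:82053223-82259879), whose human counterpart is known from schizophrenia genetics, had 3, 0 and 1, then 3, 3 and 1, and 0 in the adult libraries. For Zfp609 and Zfp804a the floor of 3 circles allows no fold against 8w.

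**Figure D4:**
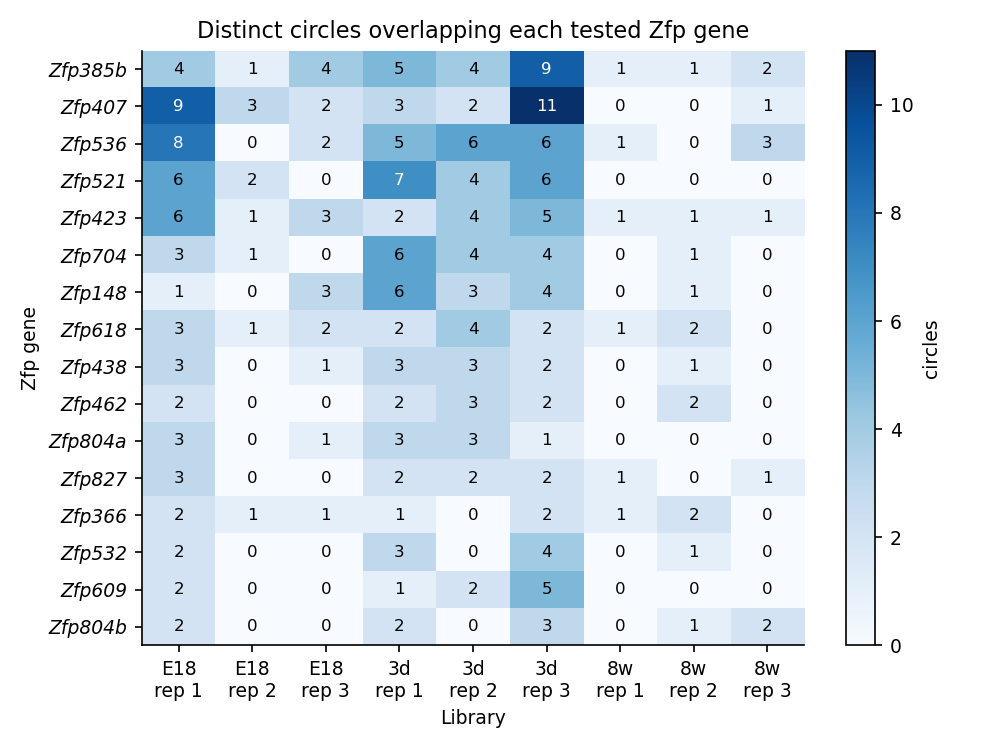
Number of distinct circles overlapping each of the 16 Zfp genes with 10 or more circles over the 9 libraries (rows, genes; columns, libraries; shade and digit, circles). Zfp385b and Zfp423 have a circle in every library, and Zfp521, Zfp609 and Zfp804a have none in the 8w libraries.

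No Zfp gene passed the test between stages. Of 2174 genes with 10 or more circles over the libraries, 16 were Zfp genes, and 0 of them passed an adjusted p of 0.05 in any of the 3 comparisons with the quasi-likelihood test of edgeR on circles per gene, where 0% of all tested genes passed. DESeq2 also called 0 Zfp genes and 0 genes in all in each comparison. At an unadjusted p under 0.05 edgeR gave 0 Zfp genes for 3d over E18, where it gave 4.83% of all genes. It gave 3 of 16 beside 13.0% of all genes when 8w was set over 3d. The count was 2 of 16 beside 8.60% when 8w was set over E18. The smallest adjusted p of a Zfp gene was 0.983, 0.335 and 0.535 in these comparisons with edgeR.

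All tested genes had a median log2 change of 0.28 from E18 to 3d, of -0.85 from 3d to 8w and of -0.62 from E18 to 8w, and gene values are given relative to it. For 8w over 3d, Zfp521 stood at -4.13 (SE 1.66, edgeR adjusted p = 0.335), Zfp407 at -1.57 (-0.40 without 8w replicate 2 and -4.14 without 8w replicate 3) and Zfp609 at -3.09 (both adjusted 0.335). On the other side Zfp366, a regulator of dendritic cells, stood at 2.04 (SE 1.19, edgeR adjusted p = 0.682), and Zfp385b and Zfp536 stood at 0.05 and 0.13. For 8w over E18, Zfp407 stood at -2.29 (SE 1.13) and Zfp521 at -3.97 (SE 1.83, both with an edgeR adjusted p of 0.535). Zfp804a stood at -3.04, Zfp804b at 1.72, Zfp462 at 1.18 and Zfp385b at 0.12, with edgeR adjusted p from 0.639 to 0.936. For 3d over E18, Zfp704, Zfp148 and Zfp609 stood at 0.77, 0.67 and 0.90, and Zfp366, Zfp407 and Zfp423 at -1.26, -0.76 and -0.81 (edgeR adjusted p = 0.983 for each). The fitted values of Zfp521, Zfp609 and Zfp804a against 8w depend on the prior count, since those libraries were at 0. Above the median of all genes lay 10 of the 16 Zfp genes from E18 to 3d, 8 from 3d to 8w and 7 from E18 to 8w.

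Among Zfp genes of 20 kb and over, circles summed over the libraries were densest in Zfp131 (chr13:119765188-119790805), a BTB zinc finger gene. Its 351 per Mb came from a summed count of 9 in 6 libraries, or 6 distinct circles. A circle found in several libraries counts once in each, so these values do not compare with distinct circles per Mb. Zfp939 and Zfp619, neighbours on chromosome 7, came next with 242 and 221 per Mb, but with circles up to 100 kb they stood at 121 and 88.3. Zfp746, whose product PARIS is a target of the ligase parkin, had 207 per Mb, Zfp787 204, Zfp617 192, Zfp365 188 and Zfp26 184. Each of the last 5 rests on a summed count of 5 from 2 to 4 distinct circles, so the order among them is not resolved at this depth.

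By known role, the list of neural and developmental genes gave 258 of the 795 summed Zfp pairs. It is the largest list, with 18 genes against 1 to 6 in the others, and was chosen with earlier results known. Its first place among the lists is thus not a result. Of its 18 genes 17 had a circle, all but Zfp385a, beside 253 of all 397 Zfp genes in RefSeq. The list held 53, 9 and 15 circles in the E18 libraries, 45, 44 and 68 in the 3d libraries and 4, 10 and 10 in the 8w libraries. Per 10000 circles this list stood at 14.1, 15.4 and 9.49 at E18, 3d and 8w. It holds the 6 longest Zfp genes by the gene spans of the deposited table.

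Of the genes that guard imprints and silence retroelements, 5 of 6 had a circle in the deposited table. By the gene spans of that table these were 8 circles in all, 0 at E18, 5 at 3d and 3 at 8w. In RefSeq, Zfp445 overlaps 3 distinct circles, against 1 in the table, and Zfp809 overlaps 4, against 2. The stages of the further circles were not examined, so the 0 at E18 holds for the table's spans alone. Zfp57, which keeps imprinted methylation in the early embryo, had 1 circle of 122 bp in 8w replicate 2 with 14 split reads. Zfp445, which shares that task, had 1 circle of 55 bp in 8w replicate 1 with 16 split reads (chr9:122856091-122856145). Zfp568, a repressor of a placental Igf2 transcript, had 3 circles, all at 3d. Zfp809, which silences endogenous retroviruses, had 1 at 3d and 1 at 8w, and Zfp708 had 1 at 3d. Zfp932 had none.

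Of the pluripotency and early embryo genes, 1 of 5 had a circle, namely Zfp143, with 2 at 3d, and Zfp42, Zfp281, Zfp352 and Zfp296 had none. Of genes of RNA and ribosome quality, 5 of 6 had a circle in the deposited table, with 12 summed over the libraries (10 distinct). Among them was Zfp598, the ubiquitin ligase that senses collided ribosomes, with 1 circle in 2 libraries. The sixth, Zfp638, has no pair in that table, but 5 distinct circles overlap its RefSeq span. Zfp91, a ubiquitin ligase, had 3 distinct circles, or 4 summed over the libraries. None of the 4 CCCH genes of the Zfp36 family, which bind AU-rich RNA and destabilise it, had a circle. Apart from the list of neural and developmental genes these counts are too small to compare stages, since a count of 0 allows up to 3 circles.

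Few Zfp circles recurred. Of 631 pairs 483 were in 1 library (76.5%, against 80.2% of the pairs of other genes), 132 in 2, 16 in 3 and 0 in 4 or more. No Zfp circle was in all 3 libraries of a stage, and 4 pairs were seen at all 3 stages. The 3d replicate 1 library took part in 90 of the 148 recurrent pairs and in 13 of the 16 found in 3 libraries, often with 1 split read. A circle of 701 bp within Zfp423 (chr8:87782262-87782962) had 100 split reads in E18 replicate 1 and 1 each in 3d replicates 2 and 3. One of 1126 bp within Zfp408 (chr2:91647393-91648518) had 73 in 3d replicate 3 and 1 each in E18 replicate 2 and 3d replicate 1. One of 69 bp within Zfp787 (chr7:6144939-6145007) had 11 in E18 replicate 1, 11 in 8w replicate 2 and 1 in 3d replicate 1. A Zfp536 circle of 375 bp (chr7:37601473-37601847) had 19 and 1 in E18 replicates 1 and 3 and 2 in 8w replicate 3. A second Zfp423 circle, of 685 bp (chr8:87686129-87686813), had 2 in E18 replicate 3, 2 in 3d replicate 1 and 17 in 3d replicate 3. In each of these circles but that of Zfp787 1 library held most of the reads. A circle of 191 bp on chromosome 8 (chr8:71911895-71912085) lies in both Zfp617 and Zfp882, whose annotated spans overlap, and counts as 2 pairs.

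Of the 2893 circles in 3 or more libraries, 15 overlapped a Zfp gene, and edgeR on split reads called 0 of them in each comparison, beside 0% of all tested circles. At an unadjusted p under 0.05 it gave 0 Zfp circles, beside 4.36% of all circles from E18 to 3d, 0.726% from 3d to 8w and 0.242% from E18 to 8w. DESeq2 called 0 Zfp circles as well, beside 0.0782%, 0.117% and 0.0782% of 2558 circles in the same order.

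The Zfp circles up to 100 kb with the most split reads in a library had few or none in the other libraries. A circle of 687 bp in Zfp81 (chr17:33344133-33344819) had 322 in 3d replicate 1 and 1 in E18 replicate 1. One of 712 bp in Zfp26 (chr9:20445295-20446006) had 214 in 3d replicate 1 and 1 in E18 replicate 3, and one of 375 bp in Zfp366 (chr13:99198119-99198493) had 146 in 3d replicate 1 and 1 in 3d replicate 3. A Zfp236 circle of 907 bp had 148 in 3d replicate 2 and 2 in 3d replicate 1. A Zfp810 circle of 537 bp (chr9:22301215-22301751) had 137 in E18 replicate 3 alone.

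Along the gene, no stretch held many more Zfp circles than another. Of 552 pairs whose circle of up to 100 kb lay wholly in the gene, 17.9%, 21.0%, 21.6%, 20.3% and 19.2% had their midpoint in the 5 successive stretches of equal length from start to end, against 19.7%, 20.3%, 20.1%, 20.2% and 19.7% for other genes. Whether a circle was exonic or intronic was not analysed here. Within 2 kb of the gene's start lay 16.9%, 14.7% and 2.33% of Zfp pairs in the E18 replicates, 11.4%, 15.4% and 17.9% at 3d and 57.1%, 0% and 0% at 8w. The high value is again that of the circle of 8.69 Mb, and with circles up to 100 kb the shares ran from 0% to 14.3%, the last from 2 pairs of 8w replicate 1. Zfp genes exceeded other genes by a mean of 6.26 percentage points with all circles, which did not pass (exact two-sided sign-flip permutation p = 0.168, adjusted 0.273). The mean was 1.24 with circles up to 100 kb and 2.00 without 8w replicate 1.

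By the gene spans of the deposited table, circles up to 100 kb that spanned the start of a Zfp gene were 3 in number. They measured 774 bp at Zfp111 (chr7:24210926-24211699, 2 split reads in 3d replicate 1), 556 bp at Zfp583 (chr7:6330960-6331515, 55 in 3d replicate 1 and 1 in 3d replicate 2) and 657 bp at Zfp957 (chr14:79246982-79247638, 3 in 3d replicate 2). All 3 were seen at 3d and in no other stage, and they are too few for a test. Of these circles only that of Zfp957 spans a start in RefSeq. There Zfp111 ends at position 24208149, outside its circle, and Zfp583 reaches 6332955, so that its circle lies inside the gene.

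Of 406 RefSeq promoter windows of Zfp genes (GRCm38.p6), the 250 bases before the start were touched by such a circle in 7, at 6 genes. The window of Zfp957 lay wholly on its circle. At the other 5 genes, which include the imprint regulator Zfp57 and the multi-finger gene Zfp385c, the table joins the circle to no Zfp gene, so it is no member pair. The circle at Zfp46 lies inside that gene's RefSeq span and touches the window of 1 of its starts. To show which promoter bases were found on a circle, 3 windows are given 5′ to 3′ on the gene's strand, with bases on the circle in capitals.
Zfp957 (chr14:79247368-79247617, minus strand): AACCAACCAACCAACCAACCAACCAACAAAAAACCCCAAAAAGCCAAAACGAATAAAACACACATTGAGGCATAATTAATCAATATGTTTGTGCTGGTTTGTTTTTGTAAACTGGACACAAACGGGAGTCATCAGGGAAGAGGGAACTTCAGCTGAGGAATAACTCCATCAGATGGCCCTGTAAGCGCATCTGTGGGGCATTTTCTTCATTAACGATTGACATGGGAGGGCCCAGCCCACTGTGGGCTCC
Zfp385c (chr11:100692467-100692716, minus strand): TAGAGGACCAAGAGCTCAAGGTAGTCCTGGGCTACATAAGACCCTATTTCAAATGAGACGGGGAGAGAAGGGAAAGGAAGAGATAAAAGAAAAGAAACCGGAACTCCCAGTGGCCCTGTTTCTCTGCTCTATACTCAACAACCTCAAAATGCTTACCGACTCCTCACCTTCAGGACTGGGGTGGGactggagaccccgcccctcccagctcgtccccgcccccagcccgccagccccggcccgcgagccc
Zfp57 (chr17:37000913-37001162, plus strand): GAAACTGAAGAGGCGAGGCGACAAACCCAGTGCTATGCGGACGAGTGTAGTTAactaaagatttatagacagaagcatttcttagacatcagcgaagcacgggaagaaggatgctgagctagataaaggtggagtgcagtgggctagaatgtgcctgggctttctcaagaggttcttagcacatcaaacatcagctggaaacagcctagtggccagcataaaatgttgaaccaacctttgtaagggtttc
The Zfp385c circle (chr11:100692532-100692846, 315 bp, 5 split reads in E18 replicate 1) took 185 of the 250 bases, and the Zfp57 circle (chr17:37000592-37000965, 374 bp, 4 split reads in 3d replicate 3) took 53. Both strands were searched for 3 common promoter motifs. The letters CCAAT occur in 33.8% of 32851 promoter windows of all genes and in 46.6% of those of Zfp genes. The letters GGGCGG occur in 32.7% of all and in 39.9% of Zfp windows. The letters TATAAA occur in 12.4% of all and in 6.65% of Zfp windows. The Zfp957 window holds none of these motifs. That of Zfp385c holds the GC box 2 times and that of Zfp57 the TATA motif 1 time, in each case on bases outside the circle.

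The same test called none of the other zinc finger genes listed. Of 91 relatives with a circle (Zbtb, Zscan, Zkscan, Klf, Prdm, Zfhx, Gli, Ikzf, Zic, Egr and Sp genes, Zfpm1, Zfpm2, Zeb1, Zeb2 and Ctcf), 20 were tested and 0 were called by edgeR in each comparison, beside 0% of all tested genes. At an unadjusted p under 0.05 edgeR gave 1, 3 and 3 of the 20 for 3d over E18, 8w over 3d and 8w over E18. Of all tested genes 4.83%, 13.0% and 8.60% had such a p. At 8w 3 of these 20 had no circle, as had 3 of the 16 tested Zfp genes and 12.9% of all 2174 tested genes. Of the cofactors through which KRAB proteins silence their targets, 11 of the 14 listed had a circle. They held 44 circles summed over the libraries, and none reached 10.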

How the data were processed

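The authors deposited 1 table of eccDNAs with split reads per library, found with Circle-Map per the file headers, in which each circle is joined to the genes it overlaps. The submitters' processing notes name BWA 0.7.12 and bedtools 2.27.1, SAMtools 1.9 and cutadapt 1.9.1, with GRCm38 and mm10 as builds. The values used are the deposited raw counts of split reads, not normalized by the authors. How reads matching several places were treated is not given in the sources used here.

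Presence in a library meant at least 1 split read. Zfp pairs were the distinct pairs of circle and gene whose symbol is Zfp followed by a digit. Of 218 symbols, 216 matched the RefSeq table of GRCm38.p6, which gave gene lengths for circles per Mb, and promoter sequences come from the same RefSeq release. Stage differences of single values were tested by exact permutation of F over 280 partitions of the 9 libraries, and Zfp against other genes by exact sign flips over 512 patterns, with Benjamini-Hochberg adjustment over 8 and 5 tests. Circles per gene (2174 genes with 10 or more) and split reads per circle (2893 circles in 3 or more libraries) were fitted over all 9 libraries with edgeR 4.0.16 (TMM, quasi-likelihood) and, as an alternative, with DESeq2 1.42.0, and adjusted over the whole table. The permutation tests and the fit per gene were tested on simulated data. Library sizes were first the sums over tested features and were changed to whole library totals after output had been seen. The first choice is kept as an alternative.

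The members and lists were chosen with earlier results of these data known. The limit of 100 kb, the runs without both 3d replicate 1 and 8w replicate 1, the split into clustered and lone genes and the position along the gene were added after the data had been seen. The Sp genes were narrowed to Sp1 to Sp9 after the list was written. Named genes are the 12 with most circles, the 8 densest of 20 kb and over, up to 3 in each direction per comparison by p, the role lists, and the 5 circles with most reads and 5 most shared. Zfp111, Zfp583, Zfp957 and the promoter windows were named from where circles fell. Nothing in the labels ties libraries to separate animals beyond the words biological replicate, so p-values measure the spread between these libraries.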

Additional observations from a re-analysis of the deposited data

Results flagged for a closer look

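Among the 9 libraries, 8w replicate 1 stood far from the others in 3 of 5 measures of Zfp genes against other genes. A median length difference of 4342796 bp for Zfp minus other genes was found there, and the nearest library stood at 30 bp. The share of circles under 250 bp was -13.9 percentage points for Zfp minus other genes, and the nearest library stood at -4.21. The share within 2 kb of the gene's start differed by 40.3 percentage points, and the nearest library stood at 8.39. Each of these gaps exceeds Dixon's critical value of 0.493 of the range, at 1.000, 0.500 and 0.697. Chance passes it in about 1 in 20 groups, and 10 ends were examined. In all 3 measures this library carries the circle of 8.69 Mb, which gave 14 of its 28 Zfp pairs from 1 split read.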

How the results depend on the processing

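The counts of Zfp genes and circles called stayed at 0 under every alternative run. Other values moved. The 8w minus 3d difference in Zfp share (percentage points) was -0.199 with 2 or more split reads per circle, -0.0801 with 5 or more, -0.0463 at equal depth, -0.105 over all circles (where the stages passed, exact permutation p = 0.0393) and -0.128 for circles wholly within the gene. It was -0.145 up to 100 kb and -0.226 without both 3d replicate 1 and 8w replicate 1. The same difference in median length (bp) was -328, -365, -235 and -342 with 2 reads, 5 reads, up to 100 kb and without both libraries, and the stages passed with 2 and with 5 reads (adjusted exact permutation p = 0.0429 for each). That in the start share was -15.7, -18.3, -2.26 and -16.7 percentage points. The short share passed at equal depth (64.3, adjusted exact permutation p = 0.0286), with 2 reads (81.8), with 5 reads (88.0) and up to 100 kb (56.3). The private share, the percent of pairs in 1 library, was -10.1 for 8w minus 3d and 1.73 with 5 reads. For Zfp minus other genes, length was -2.89 with 2 reads and -13.7 up to 100 kb. The short share was 3.04, 2.43, 1.17 and 0.250 with 2 reads, 5 reads, up to 100 kb and without both libraries, and the private share was -4.50 with all circles and 1.02 with 5 reads. The density ratio passed with 2 reads (-0.264), 5 reads (-0.301), up to 100 kb (-0.279) and without 8w replicate 1. It did not pass at equal depth (-0.138), without both libraries (-0.269, adjusted exact permutation p = 0.0781) or without any other single library. Zfp536 for 8w over 3d was -0.62 with 2 reads, and Zfp385b for 8w over E18 was -0.02 with DESeq2. The causes were not tested.

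Leaving out 1 library at a time gave these ranges for 8w minus 3d. Share ran from -0.216 to 0.182, length from -318 to 2171204 bp, start share from -14.9 to 13.7, private share from -28.5 to 8.32 and log2 density ratio from -0.393 to 0.214, the last -0.411 without both libraries. For Zfp minus other genes, the short share ran from -2.13 to 0.297, the private share from -6.06 to 1.80 and the density ratio from -0.261 to -0.109. Zfp148 for 3d over E18 ran from -0.41 to 2.17. For 8w over 3d, Zfp385b ran from -0.40 to 0.92, Zfp536 from -1.23 to 1.40 and Zfp407 from -4.14 to -0.40. For 8w over E18, Zfp385b ran from -0.62 to 1.05 and Zfp407 from -4.96 to -1.05. Clustered over lone genes was -0.176 with 5 reads and -1.17 among genes of 30 kb and over, against -0.547, and genes under 30 kb gave no value, as a library had 0 circles. The value of -1.17 includes the long chromosome 4 spans of Zfp993 and Zfp978.

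At an unadjusted p under 0.05 for 8w over 3d, 1 Zfp gene was found with library totals alone, with DESeq2, with the replicate block and with a minimum of 20 circles, and 8 of 44 with a minimum of 5, against 3 of 16. Of all genes 449 of 4892 had such a p with a minimum of 5, 68 of 779 with a minimum of 20 and 283 of 2174 with the minimum of 10 used. With the replicate block 47, 173 and 95 of all genes had such a p, against 105, 283 and 187, and with DESeq2 15, 81 and 55. Same-numbered libraries correlated at -0.0385 to 0.00753, so no pairing by number was seen, but counts this low cannot exclude one. For circles, library totals from tested circles gave 245, 14 and 28, against 126, 21 and 7. The share of exonic circles was not run. With 3 libraries a stage no pairwise p can fall below 0.1, and 8w replicate 1, with 11377 split reads, limits every adult value.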
